A study of Homo sapiens with 6 samples.

Results

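The genes described here encode enzymes that detoxify aldehydes, ketones and aromatic compounds, together with the receptor that controls some of them. They were chosen by symbol: the aldo-keto reductases AKR1B1, AKR1B10, AKR1C1, AKR1C2 and AKR1C3, the aldehyde dehydrogenases ALDH3A1 and ALDH3A2, the aryl hydrocarbon receptor AHR, and the cytochrome P450 enzymes CYP1A1 and CYP1B1. All 10 genes have a row among the 28008 genes of the count table, and 9 of them passed the filter on low counts, as did 14292 genes in all. RNA-Seq libraries came from DU-145-DR/tet-MUC1shRNA cells, which derive from the human prostate cancer line DU-145, were selected for resistance to docetaxel (DTX) and carry a short hairpin RNA against MUC1 under doxycycline (DOX) control. The DOX-negative group was 3 cultures given DMSO as the vehicle, and the DOX-positive group was 3 cultures given 500 ng/ml DOX. The treatment label names DTX resistance for the first group and the hairpin for the second, so that both groups carry both rests on the titles and on the methods of the study. The comparison asks which of these genes changed when MUC1 was silenced in drug-resistant cells. DOX exposure and MUC1 silencing cannot be told apart in it, since cells with a control hairpin under DOX were not analysed here.

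Aldo-keto reductases use NADPH to turn aldehydes and ketones into alcohols. The AKR1C enzymes act on steroid hormones, prostaglandins and carbonyl-containing drugs, and several genes of the family are known targets of NRF2, the transcription factor of the antioxidant response. Aldehyde dehydrogenases take reactive aldehydes further, to acids. AHR is a ligand-activated transcription factor that pairs with ARNT and binds DNA at a short core motif, and CYP1A1 and CYP1B1, which oxidise polycyclic aromatic compounds and oestrogens, are its best known targets.

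The AKR1C genes lie side by side and have very similar sequences, which bears on how reads are divided among them. In GENCODE 29 (GRCh38), AKR1C1 spans chr10:4963253-4983283 on the plus strand, AKR1C2 chr10:4987400-5018031 on the minus strand and AKR1C3 chr10:5035354-5107686 on the plus strand. Each has a coding sequence of 972 bases. AKR1C1 and AKR1C2 are identical at 953 of these bases (98%) and differ at 19, with an identical run of up to 189 bases. AKR1C3 is identical to AKR1C1 at 91.5% and to AKR1C2 at 91% of coding bases. Coding bases 43 to 162, counted from the first base of the start codon, are shown because this stretch of 120 bases holds the most differences between AKR1C1 and AKR1C2, 10 of the 19. Capitals mark the bases at which the 3 genes are not all the same.
AKR1C1: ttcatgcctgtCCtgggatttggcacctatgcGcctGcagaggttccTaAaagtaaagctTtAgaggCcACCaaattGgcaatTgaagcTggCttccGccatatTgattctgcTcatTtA
AKR1C2: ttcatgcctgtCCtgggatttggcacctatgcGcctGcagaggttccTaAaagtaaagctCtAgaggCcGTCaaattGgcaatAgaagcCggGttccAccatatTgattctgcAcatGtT
AKR1C3: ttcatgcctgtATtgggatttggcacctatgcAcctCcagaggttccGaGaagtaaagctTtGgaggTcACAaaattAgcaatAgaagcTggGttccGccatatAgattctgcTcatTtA

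The share of coding sequence that cannot be placed depends on read length, which is not given in the sources used here. For AKR1C1, 54.5% of all 50-base windows of the coding sequence also occur in a transcript of another gene, against 21% of 100-base and 4.98% of 150-base windows. For AKR1C2 these shares are 57.2%, 26.7% and 7.65%, and for AKR1C3 they are 23%, 9.74% and 2.67%. AKR1B10 shares 28.4% of its 50-base windows, chiefly with AKR1B15, and 3.52% of its 100-base windows. ALDH3A1, ALDH3A2, CYP1A1 and CYP1B1 share 0% at each length. AHR is a different case: 92.9% of its 100-base coding windows, and 36.8% over the whole transcript, also belong to AC019117.2. This gene model overlaps AHR exons on the same strand and has no row in the count table. Over the whole transcript, with its untranslated ends, 11.3% of 150-base windows are shared for AKR1C1, 21.2% for AKR1C2 and 1.33% for AKR1C3. Whether reads falling in more than 1 gene were counted, and whether strand was used, is not stated, so the division of counts among AKR1C1, AKR1C2 and AKR1C3 is uncertain.

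**Figure D1:**
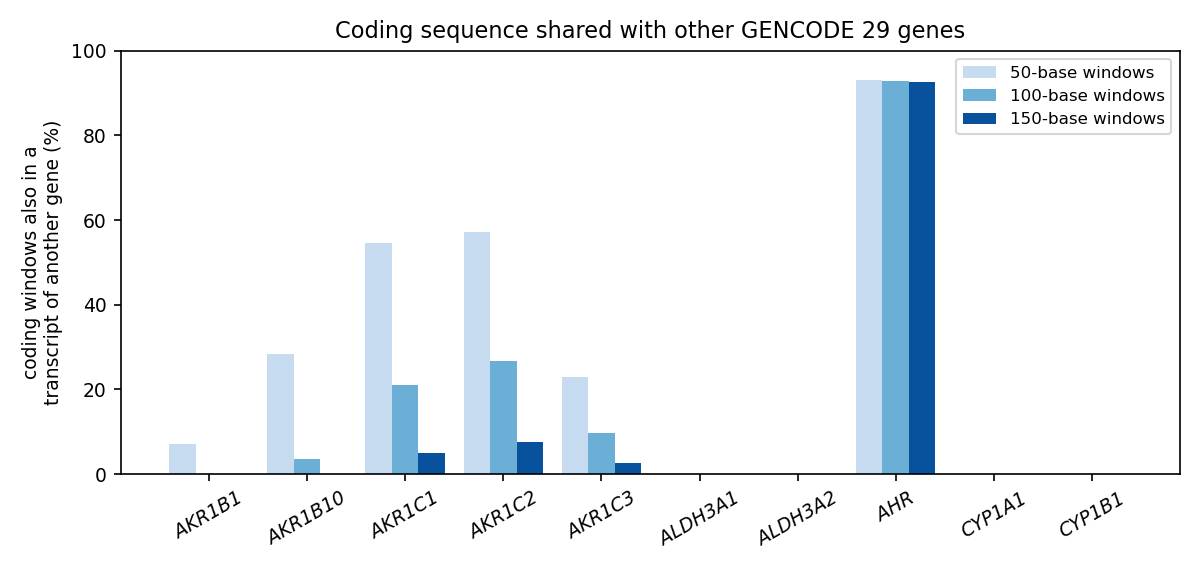
Percent of the coding windows of each gene that also occur in a transcript of another GENCODE 29 gene, for windows of 50, 100 and 150 bases. AKR1C1 (54.5%) and AKR1C2 (57.2%) stand highest among the enzymes at 50 bases, and the AHR bars come from the overlapping gene model AC019117.2.

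Promoters, here the 250 bases before and 50 bases after a RefSeq transcript start (GRCh38.p14), were matched for 7 of the 10 genes. AKR1B10, ALDH3A1 and CYP1B1 had no match, so their promoters were not searched for motifs. Among the matched genes, promoters are shown for genes that fell together or that AHR is known to control. The promoters of AKR1C1 (chr10:4963165-4963464, plus strand) and AKR1C2 (chr10:5003808-5004107, minus strand) are identical at 288 of 308 aligned columns (93.5%). The first of the AKR1C3 promoters (chr10:5048531-5048830, plus strand) is identical to that of AKR1C1 at 73.5% of aligned columns. Capitals mark ATTGG, the reverse strand of the CCAAT box, which all 3 hold between 73 and 81 bases before the start. CCAAT occurs on either strand in 34.6% of 35116 RefSeq promoters of this length. It is not particular to the AKR1C genes. The CYP1A1 promoter, where it is left in lower case, both AKR1B1 promoters and 1 of the 2 ALDH3A2 promoters also hold it. AKR1B1 and ALDH3A2 were not called.
AKR1C1: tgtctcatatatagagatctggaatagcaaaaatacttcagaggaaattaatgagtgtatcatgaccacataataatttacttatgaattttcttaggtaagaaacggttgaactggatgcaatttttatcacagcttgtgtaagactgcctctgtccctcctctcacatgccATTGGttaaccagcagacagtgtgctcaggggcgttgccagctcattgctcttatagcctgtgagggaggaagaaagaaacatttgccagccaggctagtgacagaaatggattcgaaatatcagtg
AKR1C2: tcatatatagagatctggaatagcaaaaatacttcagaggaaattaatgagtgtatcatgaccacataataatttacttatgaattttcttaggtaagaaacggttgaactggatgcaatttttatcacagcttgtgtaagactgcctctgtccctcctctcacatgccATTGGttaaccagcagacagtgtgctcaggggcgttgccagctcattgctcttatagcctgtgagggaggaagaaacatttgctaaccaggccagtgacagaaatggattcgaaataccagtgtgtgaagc
AKR1C3: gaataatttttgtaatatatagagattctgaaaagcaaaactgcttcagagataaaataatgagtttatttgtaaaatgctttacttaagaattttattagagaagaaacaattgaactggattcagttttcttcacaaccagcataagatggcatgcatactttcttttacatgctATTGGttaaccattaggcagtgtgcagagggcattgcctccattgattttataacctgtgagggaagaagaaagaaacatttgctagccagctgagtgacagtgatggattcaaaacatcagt
In the CYP1A1 promoter (chr15:74725479-74725778, minus strand), capitals mark GCGTG, the core motif of AHR with ARNT, at 57 bases before the start and TATAAA, the TATA box, at 32 bases before it.
CYP1A1: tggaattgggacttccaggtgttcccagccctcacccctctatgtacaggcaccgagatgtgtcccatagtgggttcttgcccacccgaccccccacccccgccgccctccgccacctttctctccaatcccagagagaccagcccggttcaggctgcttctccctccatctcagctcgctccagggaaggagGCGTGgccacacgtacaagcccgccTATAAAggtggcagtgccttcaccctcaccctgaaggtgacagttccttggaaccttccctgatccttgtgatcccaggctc
GCGTG was found on either strand in 36.5% of all promoters and TATAAA in 11.5%. The AHR and AKR1B1 promoters and 1 of the 2 ALDH3A2 promoters also hold GCGTG, and no AKR1C1, AKR1C2 or AKR1C3 promoter does. TGACNNNGC, the core of the antioxidant response element, is in 13.3% of all promoters and in none of those matched to these genes. These are letter matches in short windows, not binding sites.

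The libraries held between 15092691 and 23243713 counts, so that 3 counts, the detection floor used here, was between 0.129 and 0.199 CPM (counts scaled to a fixed library total, on TMM-scaled library sizes). MUC1 had 387, 484 and 396 counts without DOX and 75, 74 and 66 with DOX, which edgeR put at -2.52 on the log2 scale (SE 0.146, adjusted p 4.47e-11). The 7 markers listed for DU-145, epithelial genes and the mesenchymal gene VIM, summed to between 2191 and 2427 CPM without DOX and between 3110 and 3213 CPM with DOX. The 6 epithelial genes were called higher and VIM was not called (log2 change 0.03, edgeR adjusted p 0.733), and the part of this in the results on detoxification genes was not tested. Immune markers summed to between 91.4 and 106 CPM and between 158 and 179 CPM, nearly all from CD68, with PTPRC and CD3E at or near 0. Fibroblast markers stayed under 5.59 CPM and endothelial markers under 1.14 CPM in each library. Hepatocyte markers summed to between 44.4 and 45.7 CPM and between 33.2 and 39.2 CPM, nearly all from SERPINA1.

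Silencing was accompanied by lower levels of the low-abundance aldo-keto reductases and of CYP1A1, and by a higher level of AHR; in bulk RNA, fewer expressing cells and less RNA per cell cannot be told apart. AKR1B10, AKR1C1, AKR1C2, AKR1C3 and CYP1A1 fell, AHR rose, and AKR1B1, ALDH3A2 and CYP1B1 did not pass the threshold, an adjusted p under 0.05 by the quasi-likelihood test of edgeR over all genes tested. Among all genes tested 26.7% were called, 13% higher and 13.7% lower. AKR1B10, AKR1C1 and AKR1C2 reached the filter of 0.521 CPM, taken on library totals without TMM scaling, in all 3 DOX-negative libraries but in 1 DOX-positive library each, so they were tested because they were high without DOX, and the 6 calls are not read against those shares. When at least 10 counts were required in every library, 6 of the 10 genes could be tested and 3 were called, AHR, AKR1C3 and CYP1A1. Without DOX-positive replicate 2, 3 of the genes were called in place of 6, since AKR1C1, AKR1C2 and CYP1A1 lost their call.

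**Figure D2:**
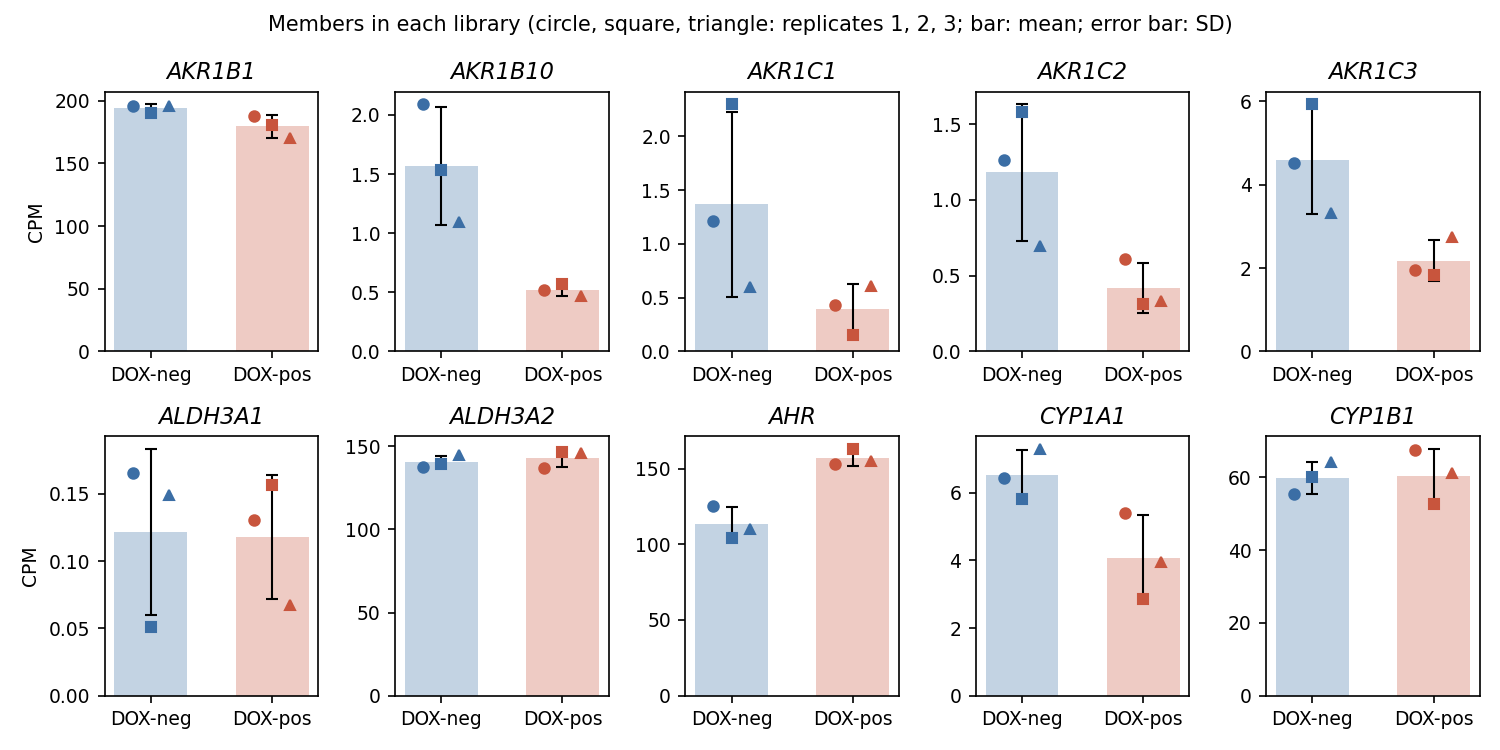
CPM of the 10 genes in each library, each panel with its own linear axis from 0; points are the 3 libraries of a group (circle, square and triangle for replicates 1, 2 and 3), bars their mean and error bars the SD. The groups are apart for AKR1B10, AKR1C3 and AHR and, by small margins, for AKR1C2, CYP1A1 and AKR1B1. Groups were apart for 39.8% of all genes tested, and AKR1B10 and AKR1C2 passed the filter through the DOX-negative group.

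Of the AKR1C genes, AKR1C3 was the most abundant and its fall the best supported. AKR1C3, a reductase that can make testosterone from androstenedione and is known for its part in prostate cancer, had 82, 116 and 67 counts without DOX and 45, 35 and 41 with DOX. These were 4.51, 5.93 and 3.33 CPM against 1.96, 1.83 and 2.76 CPM, so that each DOX-positive library was below each DOX-negative library. The means were 4.59 ± 1.30 and 2.18 ± 0.502 CPM (SD, n = 3 each), 47.5% of the DOX-negative level. By edgeR the log2 change was -1.09 (SE 0.251, adjusted p 0.00238). It stayed past the threshold in each of 16 alternative fits, between -1.38 and -0.86.

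AKR1C1, which inactivates progesterone, and AKR1C2, which inactivates the potent androgen dihydrotestosterone, were close to the floor. AKR1C1 had 22, 45 and 12 counts without DOX and 10, 3 and 9 with DOX. In CPM these were 1.21, 2.30 and 0.597 against 0.435, 0.157 and 0.605, and the groups overlapped, because DOX-negative replicate 3 lay just below DOX-positive replicate 3. Its mean fell from 1.37 ± 0.862 to 0.399 ± 0.226 CPM (SD, n = 3 each), and edgeR gave a log2 fold change of -1.80 with an SE of 0.517 (adjusted p 0.0125). The AKR1C1 call was lost without DOX-negative replicate 2 (log2 fold change -1.19, edgeR adjusted p 0.149) and without DOX-positive replicate 2 (-1.42, edgeR adjusted p 0.0520).

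AKR1C2 had 23, 31 and 14 counts without DOX and 14, 6 and 5 with DOX. The levels were 1.26, 1.58 and 0.696 CPM against 0.610, 0.313 and 0.336 CPM, and the groups did not overlap. The means were 1.18 ± 0.450 and 0.420 ± 0.165 CPM (SD, n = 3 each), with a log2 change of -1.43 by edgeR (SE 0.449, adjusted p 0.0214). AKR1C2 lost its call in DESeq2, at an adjusted p of 0.0501, and in 4 of the 6 fits with 1 library removed: DOX-negative replicate 1 or 2 (edgeR adjusted p 0.0700 and 0.125), or DOX-positive replicate 2 or 3 (0.0698 and 0.0738). It was also not called from log2(TPM + 1), as deposited (limma adjusted p 0.0966) or rescaled without short noncoding RNAs (0.0525). DOX-negative replicate 2 was the highest and replicate 3 the lowest DOX-negative library for all 3 AKR1C genes.

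Summing the genes removes the question of how the counted reads were divided among them. Reads left out for matching more than 1 gene would be missing from the sum too. The AKR1C sum was 127, 192 and 93 counts without DOX and 69, 44 and 55 with DOX, or 6.99, 9.82 and 4.63 CPM against 3.01, 2.30 and 3.70 CPM. All 3 DOX-positive libraries were below the lowest DOX-negative library. The sum fell from 7.14 ± 2.60 to 3.001 ± 0.700 CPM (SD, n = 3 each), or -1.26 on the log2 scale (SE 0.241, 95% interval -1.76 to -0.76, edgeR adjusted p 0.000453). Without DOX-negative replicate 2, the highest library, it was -0.96 (edgeR adjusted p 0.00743). AKR1C4, the liver member of the family, had 0 counts in all 6 libraries, so a level of up to 0.199 CPM cannot be seen in the least deep library; this and the other floors cover counting error only.

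The makeup of the AKR1C sum was not shown to differ between groups. AKR1C3 held 64.6%, 60.4% and 72.04% of AKR1C counts without DOX and 65.2%, 79.6% and 74.5% with DOX. AKR1C1 held 17.3%, 23.4% and 12.9% against 14.5%, 6.82% and 16.4%, and AKR1C2 18.1%, 16.1% and 15.1% against 20.3%, 13.6% and 9.09%. AKR1C3 was thus the main contributor in every library, and its share overlapped between the groups. The 2-sided exact permutation test gave p of 0.4 for AKR1C1, 0.6 for AKR1C2 and 0.2 for AKR1C3 (0.6 for each after adjustment over the 3), where 3 libraries against 3 cannot go below 0.1.

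**Figure D3:**
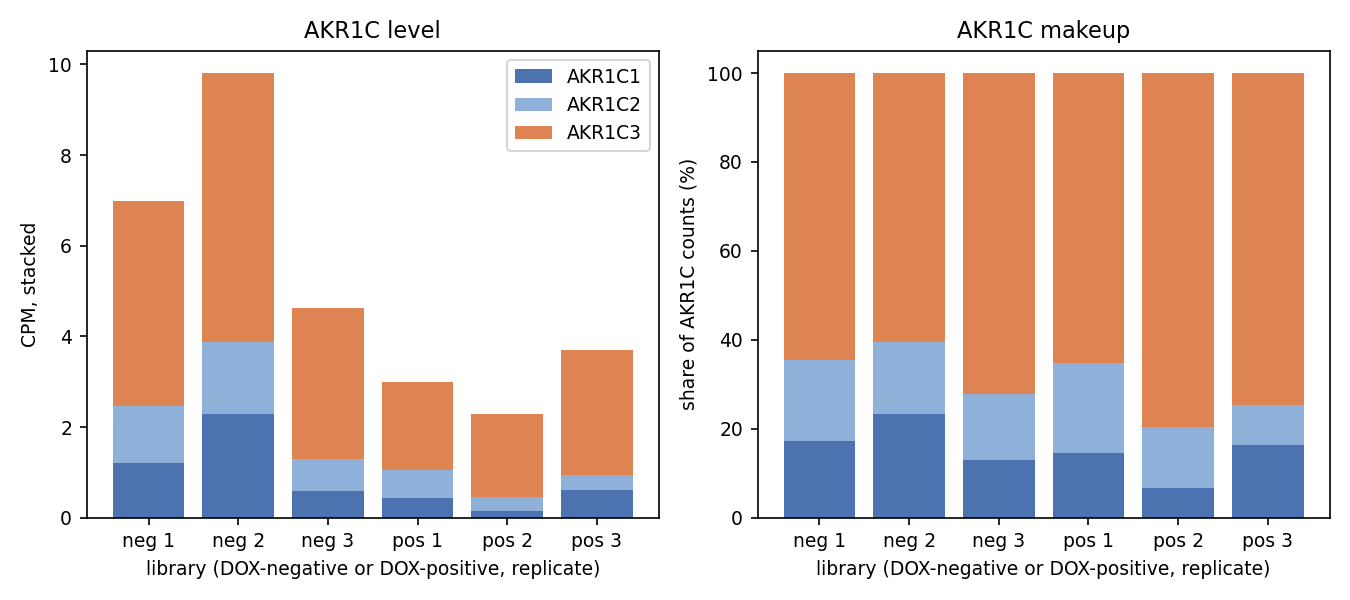
AKR1C1, AKR1C2 and AKR1C3 in each library, stacked as CPM (left) and as percent of their summed counts (right). The stack is lower in all 3 DOX-positive libraries (3.01, 2.30 and 3.70 CPM) than in the DOX-negative libraries, and AKR1C3 is the largest part of each.

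The AKR1B genes differed in level and in change. AKR1B1 (chr7:134442350-134459284, minus strand) encodes aldose reductase, which turns glucose into sorbitol, and was the most abundant gene of the group. It had 195, 190.0 and 196 CPM without DOX and 188, 181 and 169.9 CPM with DOX. The groups did not overlap, which was true of 39.8% of all genes tested in either direction, and the change of -0.11 on the log2 scale (SE 0.0625, 95% interval -0.24 to 0.02) did not pass the threshold (edgeR adjusted p 0.206). AKR1B10 (chr7:134527592-134541408, plus strand) reduces retinal and reactive aldehydes and was rare, with 38, 30 and 22 counts without DOX and 12, 11 and 7 with DOX. Its levels were 2.09, 1.53 and 1.09 CPM against 0.523, 0.574 and 0.470 CPM, with the DOX-positive libraries close together and all below the DOX-negative ones. AKR1B10 fell to 33.2% of the DOX-negative mean, from 1.57 ± 0.499 to 0.522 ± 0.0520 CPM (SD, n = 3 each), and edgeR gave a log2 fold change of -1.56 with an SE of 0.390 (adjusted p 0.00471). It kept its call in each of 16 alternative fits, from -1.77 to -0.87. AKR1B15, with which it shares most sequence, had at most 1 count in a library.

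Among all genes tested, 20.2% had DOX-positive libraries that were all below the DOX-negative ones, and 1.5% were called with a log2 fold change of -1 or lower. AKR1C3, which reached the filter in all 6 libraries, met both marks, and 1.33% of genes tested had a change lower than its own, while 19.4% had a lower average level. AKR1B10, AKR1C1 and AKR1C2 are not set against these shares, since passing the filter through the DOX-negative group favours a large fall.

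Neither ALDH3A1 nor ALDH3A2 was called. ALDH3B1, an ALDH3 gene counted below with the other aldehyde dehydrogenases, was called higher (log2 change 0.27, edgeR adjusted p 0.0341). ALDH3A2 (chr17:19648136-19677598, plus strand), which oxidises long-chain fatty aldehydes, had 137, 140 and 145 CPM without DOX and 137, 147 and 146 CPM with DOX, so that the groups overlapped. Its log2 fold change was 0.03 (SE 0.0637, 95% interval -0.11 to 0.16, edgeR adjusted p 0.807), and its sign turned with total counts as the scaling (-0.0084). ALDH3A1 (chr17:19737984-19748943, minus strand), a cytosolic enzyme known for its abundance in the cornea, had 3, 1 and 3 counts without DOX and 3, 3 and 1 with DOX. These are at or under the floor in all 6 libraries, it did not pass the filter, and no difference was detectable at this depth.

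AHR was higher in silenced cells, CYP1A1 was lower and CYP1B1 was not called. AHR (chr7:16916359-17346152, plus strand) had 126, 104 and 110 CPM without DOX and 153, 163 and 155 CPM with DOX. All DOX-positive libraries lay above all DOX-negative ones. The mean rose from 113 ± 11.2 to 157 ± 5.44 CPM (SD, n = 3 each), 139% of the DOX-negative level, with a log2 change of 0.47 by edgeR (SE 0.0722, adjusted p 4.22e-05). Among genes tested, 92.4% had a lower change. Without each library in turn the change was between 0.41 and 0.55 and stayed past the threshold. From the deposited TPM it was 0.08 with a pseudocount of 1 or 0.1 and was not called (limma adjusted p 0.857 and 0.855). The median of all genes stood at -0.32 and -0.39 in these fits. The AHR call was kept in 15 of 17 alternatives, among them TPM rescaled without 5 short noncoding RNAs.

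CYP1A1 (chr15:74719542-74725610, minus strand), the classical AHR-induced enzyme, had 117, 114 and 147 counts without DOX and 124, 55 and 59 with DOX. Its levels were 6.44, 5.82 and 7.31 CPM against 5.40, 2.87 and 3.96 CPM. The groups did not overlap, but DOX-positive replicate 1 came close to DOX-negative replicate 2. CYP1A1 fell to 62.5% of the DOX-negative mean, from 6.52 ± 0.746 to 4.08 ± 1.27 CPM (SD, n = 3 each), and edgeR gave a log2 fold change of -0.66 with an SE of 0.205 (adjusted p 0.0193). The call was lost without DOX-negative replicate 3 (-0.57, edgeR adjusted p 0.0804) and without DOX-positive replicate 2 (-0.46, edgeR adjusted p 0.0845), and CYP1A1 was not called from the deposited TPM (limma adjusted p 0.0655 and 0.0817). CYP1B1 (chr2:38066973-38109902, minus strand), which hydroxylates oestradiol, was more abundant, at 55.4, 60.0 and 64.2 CPM without DOX and 67.5, 52.8 and 61.1 CPM with DOX. Its groups overlapped, and its change of 0.01 (SE 0.0885, 95% interval -0.17 to 0.20, edgeR adjusted p 0.926) did not pass the threshold and had no settled sign across fits, from -0.08 to 0.10 when a library was left out. CYP1B1-AS1, which overlaps CYP1B1 on the other strand, had at most 10 counts in a library.

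**Figure D4:**
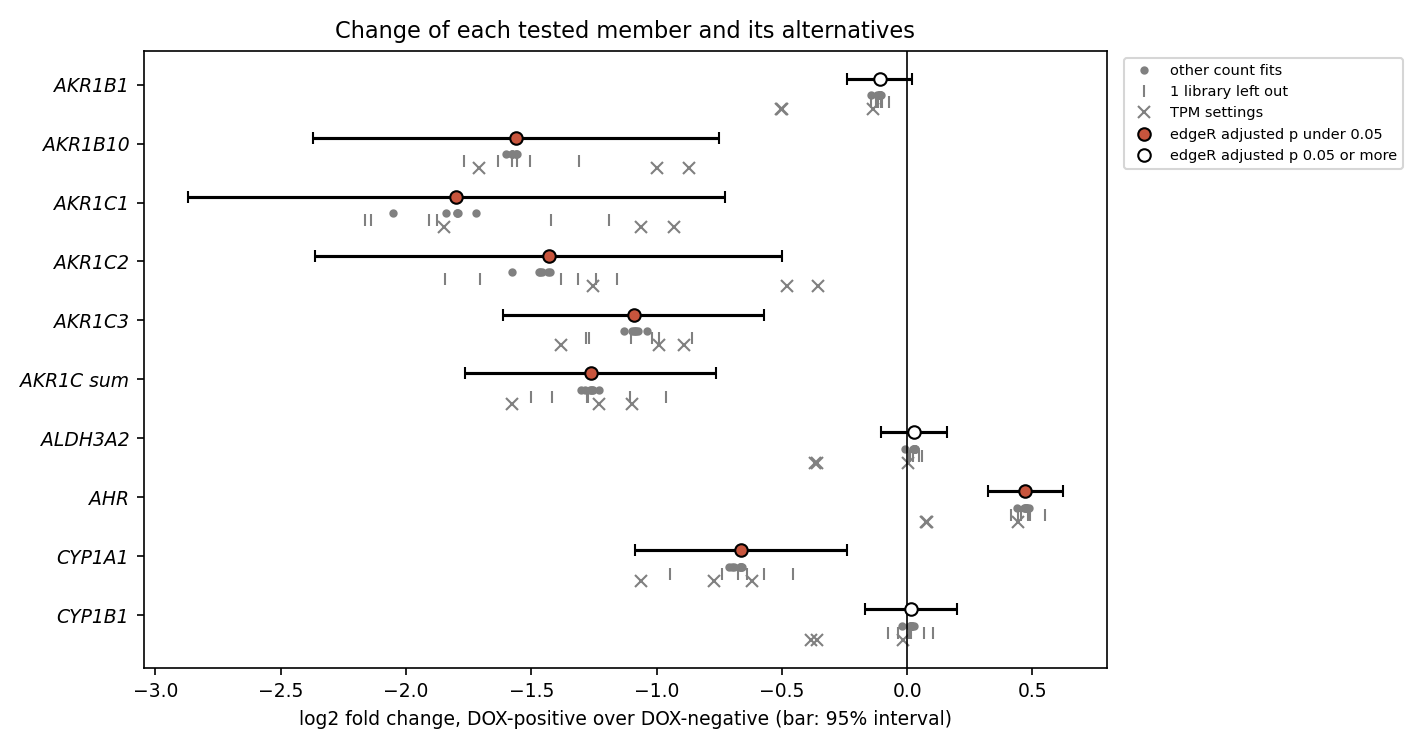
Log2 fold change (DOX-positive over DOX-negative) of the 9 tested genes and the AKR1C sum, with 95% intervals; filled circles had an edgeR adjusted p under 0.05, and grey marks below each circle give alternative fits. AKR1B10, the AKR1C genes and CYP1A1 lie below 0 in every fit, AHR lies above 0 in every fit, and the TPM marks of the high genes are shifted to the left.

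Compared per transcript length in the deposited TPM (counts scaled for transcript length and library total), the order of levels was nearly the same in all 6 libraries. AKR1B1 was highest at a mean of 117 TPM, followed by ALDH3A2 at 45.4, AHR at 25.0 and CYP1B1 at 13.9, and these 4 kept ranks 1 to 4 in each library. CYP1A1 (2.54 TPM) and AKR1C3 (2.49 TPM) exchanged ranks 5 and 6, and AKR1C1 (1.10 TPM) and AKR1B10 (0.994 TPM) exchanged ranks 7 and 8. AKR1C2 (0.266 TPM) and ALDH3A1 (0.0656 TPM) were lowest. AKR1C1 and AKR1C2 had similar counts, and the length behind the deposited TPM was 0.645 to 0.646 times that of AKR1C3 for AKR1C1 and 2.28 times for AKR1C2, so the order of these 2 genes rests on the lengths used. Within each library 5 short noncoding RNAs held between 34.4% and 64.4% of TPM, which moves every level but not the order.

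AHR had the lowest adjusted p of the 9 tested genes, so the genes with the nearest profile to it were looked up. Over the 6 libraries, SDF2L1, DRG2 and PLEKHA6 had the lowest root mean square difference from AHR in mean-centred log2 CPM, at 0.0290, 0.0363 and 0.0374. Their log2 fold changes were 0.47, 0.47 and 0.50, near that of AHR because the genes were picked on the same 6 libraries.

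Of 19 partners and other targets of AHR 15 were tested, 2 rose and 5 fell (46.7% called, against 26.7% of all genes tested), with a median log2 fold change of -0.12 against -0.0034 over all genes tested. ARNT, the DNA-binding partner of AHR, was at 122 ± 7.31 and 127 ± 4.71 CPM (SD, n = 3 each) and did not pass the threshold (0.06, edgeR adjusted p 0.529). TIPARP, an AHR-induced repressor of the receptor, rose by 0.30 on the log2 scale (edgeR adjusted p 0.00110), and EREG, a growth factor gene, by 0.51 (3.86e-06). In the deposited TPM, without correction for the lower median of all genes, the TIPARP change was -0.10. AHRR, the other AHR-induced repressor, had 22, 24 and 17 counts without DOX and 14, 11 and 11 with DOX, and its change of -0.78 was not called (edgeR adjusted p 0.148). NQO1, a quinone reductase that AHR and NRF2 both induce, fell from 1178 ± 60.8 to 771 ± 22.6 CPM (SD, n = 3 each), which edgeR put at -0.61 in log2 units (SE 0.0632, adjusted p 2.21e-07). The coactivator NCOA3 (-0.45) and HSP90AA1 (-0.36), a chaperone of the receptor, also fell. NFE2L2, which encodes NRF2, belongs to this list and the next.

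Of the NRF2 list all 31 genes were tested, 21 fell, 1 rose and the median was -0.31. That is 71% called, where 26.7% of all genes tested were called, 13% higher and 13.7% lower. This list, like the others, was chosen with earlier results of these data known, so the shares are not a test of it. NFE2L2 fell from 200 ± 6.60 to 164 ± 9.02 CPM (SD, n = 3 each; -0.29, edgeR adjusted p 0.00196), and KEAP1, which marks NRF2 for degradation, fell from 52.9 ± 5.99 to 40.9 ± 2.20 CPM (-0.37, edgeR adjusted p 0.00318). TRIM16L fell from 102 ± 0.490 to 42.5 ± 2.28 CPM, a change of -1.25 (SE 0.0732, edgeR adjusted p 4.93e-11). UGDH, which makes UDP-glucuronic acid for conjugation, fell by 0.66 on the log2 scale and GSR, glutathione reductase, fell by 0.48. BACH1, a repressor of antioxidant genes, rose by 0.28 (edgeR adjusted p 0.00223), but was at -0.11 in the deposited TPM without correction for the lower median of all genes. AKR1C3, which reached the filter in all 6 libraries, fell by more than every called gene of this list except TRIM16L. These differences between genes were not tested. AKR1B10, AKR1C1 and AKR1C2 are not ranked here, since passing the filter through the DOX-negative group favours a large fall.

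Of 13 other aldo-keto reductases 12 have a row and 5 were tested. KCNAB2, a potassium channel subunit, fell (-0.81, edgeR adjusted p 0.000504), so that 20% were called, near the 26.7% of all genes tested, and the median was -0.04. A further gene of this list was called without DOX-positive replicate 3. AKR1A1, a broad aldehyde reductase, was at 18.6 ± 1.46 and 17.99 ± 1.76 CPM (SD, n = 3 each), with a change of -0.04 (edgeR adjusted p 0.835) whose sign turned without DOX-negative replicate 2 or DOX-positive replicate 3. Of 17 other aldehyde dehydrogenases 12 were tested, 5 rose and 2 fell (58.3% called), with a median of -0.06. ALDH1L2 (0.66), ALDH2 (0.40), ALDH6A1 (0.77) and ALDH4A1 (0.39) rose, and ALDH1A3 (-0.35), a retinal dehydrogenase, and ALDH16A1 (-0.35) fell. The ALDH16A1 call (edgeR adjusted p 0.0433) was lost in DESeq2 (0.0770), with a replicate block (0.0677) and without any 1 library (0.0527 to 0.190). The ALDH4A1 call (edgeR adjusted p 0.0281) was lost with total counts (0.0520), with thinned counts (0.0510) and without replicate 1 or 3 of either group (0.0554 to 0.139). ALDH4A1 was at -0.013 and -1.06e-05 in the deposited TPM, with pseudocounts of 1 and 0.1. With replicate 1 or 3 of the DOX-negative group or replicate 1 of the DOX-positive group left out, 4 aldehyde dehydrogenases were called in place of 7.

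Of 42 other phase I and II enzymes 34 were tested, 5 rose and 8 fell, with a median of -0.02. The 38.2% called is read beside the 26.7% of all genes tested. CYP4F3 and CYP4F11, which hydroxylate fatty acids, fell (log2 change -2.24 and -1.34, edgeR adjusted p 1.23e-08 and 8.19e-10), but belong to a cluster of similar genes, so their reads may be shared. The glutathione transferase GSTP1 (-0.64) and the epoxide hydrolase EPHX1 (-0.50) fell. DHRS7 (0.89), CYP24A1 (0.76), the cholesterol synthesis enzyme CYP51A1 (0.40) and GSTO1 (0.44) rose. Of 26 steroid conversion enzymes 12 were tested, 5 rose and 0 fell (41.7% called), with a median of 0.16. HSD17B6 (1.08), SRD5A3 (0.61), HSD17B12 (0.39) and HSD17B4 (0.26) rose, of which HSD17B12 and HSD17B4 were at -0.00063 and -0.13 in log2(TPM + 1). HSD17B6 had 29, 39 and 12 counts without DOX, and its call (edgeR adjusted p 0.0150) was lost without DOX-negative replicate 3 (0.71, adjusted p 0.0782) and from the deposited TPM (limma adjusted p 0.278 and 0.238). Over all lists joined, 142 different genes, 104 were tested, 18 rose and 33 fell.

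**Figure D5:**
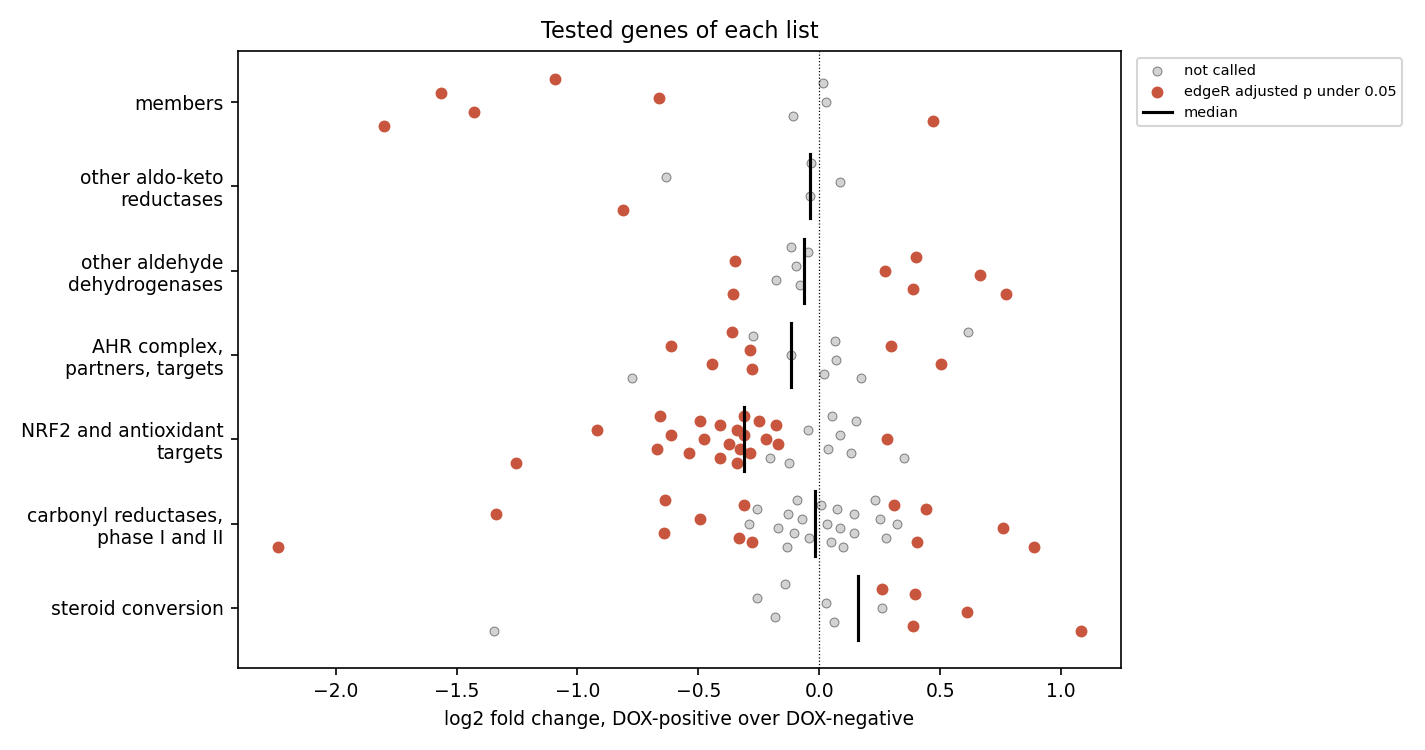
Log2 fold change (DOX-positive over DOX-negative) of the 9 tested detoxification genes (members) and of each tested gene in 6 related lists; red points had an edgeR adjusted p under 0.05 and black bars mark list medians. The NRF2 list lies mostly below 0 with a median of -0.31, and the other lists spread to both sides.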

How the data were processed

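Libraries were prepared by the authors with a stranded poly(A) kit (TruSeq Stranded mRNA) from total RNA of triplicate cultures, and samples were grouped by title. The authors deposited whole-number read counts for 28008 genes and TPM values for 25546 genes. The submitters' processing notes name STAR, DESeq2 and GRCh38 (hg38). Annotation, read length and counting settings are not given in the sources used here. Groups of 3 cultures measure the spread between cultures of 1 line.

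The deposited counts were tested with edgeR 4.0.16 (R 4.3.3) after filterByExpr (14292 genes kept) and TMM scaling (factors 0.986 to 1.03), by the two-sided quasi-likelihood test (glmQLFit, glmQLFTest) on group alone, with Benjamini-Hochberg adjustment. Each SE is the size of the log2 change over the root of its F statistic. Library totals of 15092691 to 23243713 counts set the precision of low genes. AKR1C counts were also summed and refitted with all other genes. Alternatives used DESeq2 1.42.0 and limma 3.58.1 on log2(TPM + 1) and log2(TPM + 0.1). Further ones used other scalings, filters and a threshold of 0.01, thinned counts, a replicate block and each library left out. A pseudocount of 1 shrinks the fold changes of the lowest genes. AKR1B10 was at -0.87 with it, against -1.56 from counts and -1.71 with a pseudocount of 0.1. TPM rescaled without 5 short noncoding RNAs was added after seeing the data. Fits were tested on simulated counts.

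Named genes were the 10 members, MUC1, up to 4 genes per list and direction with the lowest adjusted p and average logCPM of at least 1, ARNT, AHRR, TIPARP, NFE2L2, KEAP1, NQO1, AKR1A1, AKR1C4, and 3 genes nearest AHR in profile. Other genes, such as marker genes and overlapping genes, were named after their values were seen. Members and lists were chosen with earlier results of these data known. Promoters are from RefSeq (GRCh38.p14), coding sequences from GENCODE 29, compared with Biopython 1.88. Some marker genes are not reported here.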

Additional observations from a re-analysis of the deposited data

How the results depend on the processing

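MUC1 and the AKR1C sum kept their direction and call under all alternatives, as did AKR1B10 and AKR1C3 wherever they were tested. Of the detoxification genes, 6 were called, against 3 with at least 10 counts in every library, 3 from log2(TPM + 1), 3 at an adjusted p under 0.01, and between 3 and 6 with 1 library left out (3 without DOX-positive replicate 2). Over all genes, 3816 were called, against 443 and 408 from log2(TPM + 1) and log2(TPM + 0.1), with 6.77% and 7.11% of calls higher in place of 48.8%, and 2307 at an adjusted p under 0.01. The TPM settings moved the median of all genes to -0.32 and -0.39; 3097 genes were called from TPM rescaled without short noncoding RNAs. With total counts 39.3% of calls were higher.

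From log2(TPM + 1) and log2(TPM + 0.1), 0 and 0 aldehyde dehydrogenases were called (7 from counts), 1 and 1 AHR partners and targets (7), 7 and 5 NRF2 genes (22), 4 and 3 phase I and II enzymes (13) and 0 and 0 steroid conversion enzymes (5); log2(TPM + 0.1) called 0 other aldo-keto reductases (1). With 1 library left out, between 4 and 6 aldehyde dehydrogenases and between 1 and 2 other aldo-keto reductases were called.

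The TPM settings reversed ALDH3A2 (-0.36 and -0.37), CYP1B1 (-0.36 and -0.38), ARNT (-0.32 and -0.33), ALDH4A1 (-0.013 and -1.06e-05), TIPARP (-0.0951 and -0.0961), BACH1 (-0.11 and -0.11), HSD17B12 (-0.00063 and -0.00040) and HSD17B4 (-0.13 and -0.13), beside the lower median of all genes given above. Total counts reversed ALDH3A2 (-0.0084) and CYP1B1 (-0.020), and rescaled TPM reversed CYP1B1 (-0.015). With 1 library left out, CYP1B1 ranged from -0.076 to 0.10, with the sign turned for replicate 1 of either group (-0.038 for DOX-negative), and AKR1A1 from -0.10 to 0.033, with the sign turned for DOX-negative replicate 2 (0.0036) and DOX-positive replicate 3; the cause was not tested.

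Same-numbered libraries deviated from their group means with correlations of -0.046, -0.12 and -0.032. These values show no shared replicate effect, but cannot tell whether same-numbered cultures were handled together. With the replicate block 3158 genes and 6 of the detoxification genes were called, and the AKR1C sum changed by -1.23. Counts of 3 to 45 per library limit the precision of AKR1C1, AKR1C2 and AKR1B10.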
